A study of Mus musculus with 2 samples.

Results

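Mir21a, Mir31, Mir221 and Mir222 are 4 microRNA genes known for their induction in injured or reactive tissue. They were taken by symbol from the 2202 microRNA genes of the GENCODE M21 annotation counted in 2 microRNA-seq libraries. They were chosen by their sense counts, scaled to library size, as genes with a known induction that were each higher in replicate 2 than in replicate 1. The values below that set the replicates side by side therefore describe the choice and were not tested. Both libraries come from left cerebral cortex of male mice, 8 to 10 months old and adult, of the strain labelled 5xFAD/CAST. They are biological replicates 2 and 1 of 1 group. Their tissue samples are listed separately but under a shared donor identifier, and whether the replicates differ as animals or as preparations cannot be told. 5xFAD is a transgenic mouse line that expresses mutant human amyloid precursor protein and presenilin and deposits amyloid, and CAST commonly denotes a wild-derived inbred strain. Both libraries share this strain label, and the labels name no promoter and do not say whether the sampled animals carried the transgenes. No control mice or injured tissue were analysed here, so the data give levels in this cortex and no response to injury.

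MicroRNAs are short RNAs cut from a hairpin precursor. They guide the silencing complex to messenger RNAs that pair with their seed, the bases from position 2 to 8, and so lower the output of those messages. miR-21 is abundant in many growing, fibrotic or inflamed tissues, is raised in astrocytes after injury to the central nervous system, and represses the growth inhibitor Pdcd4. miR-221 and miR-222 are made from a shared cluster and, in human cancer cells, repress the cell cycle inhibitor CDKN1B. miR-31 represses the small GTPase gene RHOA in human cancer cells. In brain, all of these are also made in cells other than neurons, and total RNA of tissue cannot tell more cells of a type from more RNA per cell.

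The mature sequences below show which of these microRNAs can share targets and which reads could be confused with one another. They run from 5′ to 3′ with the seed in capitals, from RefSeq (GRCm38.p6).
mmu-miR-21a-5p: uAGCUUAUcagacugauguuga
mmu-miR-21a-3p: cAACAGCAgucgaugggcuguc
mmu-miR-31-5p: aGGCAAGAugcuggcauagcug
mmu-miR-31-3p: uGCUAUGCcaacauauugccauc
mmu-miR-221-5p: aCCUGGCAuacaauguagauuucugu
mmu-miR-221-3p: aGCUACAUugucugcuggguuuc
mmu-miR-222-3p: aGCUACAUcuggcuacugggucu
mmu-miR-21b: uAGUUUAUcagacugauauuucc
mmu-miR-21c: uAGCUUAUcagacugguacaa

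miR-221-3p and miR-222-3p have the same seed. They are identical over the first 8 bases from the 5′ end and then differ at 12 of the remaining positions of their 23 bases, beginning with U9C (miR-221-3p first, positions counted from 1 at the 5′ end), so their reads can be told apart. In the RefSeq table, miR-1928 is the other mature microRNA with that seed, and its gene Mir1928 had 0 reads in both libraries. The seed of miR-21a-5p is shared with miR-21c, which differs from it at 5 of 21 positions (A16G, G18A, U19C, U20A and G21A). miR-21b differs from miR-21a-5p at 4 of 22 positions, and C4U lies inside the seed. Mir21b and Mir21c had 0 reads in both libraries. A count of 0 allows up to 3 reads, that is 0.675 CPM for replicate 2 and 0.609 CPM for replicate 1. CPM is the count scaled to 1000000 reads assigned to microRNA genes. The seeds of miR-31-5p and miR-31-3p occur in no other mature sequence of the table.

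Each of the 4 precursors had a sequence of its own among annotated microRNAs. The longest run that Mir21a shares with any of the 2201 other loci is 15 bases, with Mir21c. It is 13 bases for Mir221 and 12 bases each for Mir31 and Mir222. None of the 4 shares a run of 20 bases with another locus. Reads that matched several places, 33.0% of all reads in replicate 2 and 38.5% in replicate 1, are outside the gene counts, and how many came from these precursors was not tested. The search covered annotated microRNAs and not the whole genome.

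By the GENCODE M21 annotation of mm10, counted from 1, the 4 genes lie at 3 loci, all on the minus strand. Mir21a is at chr11:86584067-86584158, in exon 12 of 12 of Vmp1, a gene of autophagy and of the endoplasmic reticulum, where the transcript is annotated as untranslated. Mir31 is at chr4:88910557-88910662, in exon 3 of 3 of AL805899.1, annotated as a long intergenic non-coding RNA. Mir221 is at chrX:19146294-19146388 and Mir222 at chrX:19146893-19146971, 504 bases apart. Neither overlaps another annotated gene, and the nearest on the same strand that is no microRNA is the non-coding gene Gm14636, 10009 bases from Mir222. No annotated microRNA gene other than this pair lies within 10 kb of any of the 4.

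Out of 16991914 reads in replicate 2, 4441328 fell on microRNA genes in the sense direction, as did 4929428 out of 16403925 in replicate 1. Genes with 10 or more reads in both libraries, 417 of the 2202, are called detected. A read in this assay stands for a short RNA of under 30 bases, whatever the length of its precursor, so levels are not divided by length. Ligation and amplification can favour some sequences, which limits comparison between genes more than comparison of the same gene between libraries. Reads of both arms of a precursor are counted together.

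Mir21a, the source of miR-21, had 20100 reads in replicate 2 and 7483 reads in replicate 1. This is a level of 4526 CPM in replicate 2 (exact 95% Poisson interval 4463 to 4589) and of 1518 CPM in replicate 1 (1484 to 1553). Its mean was 3022 ± 2127 CPM (SD, n = 2), and by level it ranked 43 among the 2202 genes in replicate 2 and 75 in replicate 1. The ratio of replicate 2 to replicate 1 was 2.98 (exact 95% interval 2.90 to 3.06). Here and below the intervals hold counting error alone, without molecular identifiers.

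Of the 4 genes, Mir31 differed most between the libraries. It had 6890 reads in replicate 2 and 568 in replicate 1, which are 1551 CPM in replicate 2 (interval 1515 to 1588) and 115 CPM in replicate 1 (106 to 125). It ranked 79 in replicate 2 and 199 in replicate 1. The SD exceeded the mean, at 833 ± 1015 CPM (n = 2), so no typical level of Mir31 in this cortex can be given. The ratio was 13.5 (12.4 to 14.7), and it came from a count in replicate 1 far above the level of 3 reads, so it does not rest on a near-empty library.

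The clustered genes Mir221 and Mir222 were the most abundant and the third most abundant of the 4. Mir221 had 34411 reads in replicate 2 and 18938 in replicate 1, or 7748 CPM (interval 7666 to 7830) in replicate 2 and 3842 CPM (3787 to 3897) in replicate 1. Its mean was 5795 ± 2762 CPM (n = 2), it ranked 23 in replicate 2 and 42 in replicate 1, and its ratio of 2.02 (1.98 to 2.05) was the smallest of the 4. Mir222 had 10258 reads in replicate 2 and 3634 in replicate 1, or 2310 CPM (2265 to 2355) in replicate 2 and 737 CPM (713 to 762) in replicate 1. Its mean was 1523 ± 1112 CPM (n = 2), and its ratio was 3.13 (3.02 to 3.25).

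**Figure D1:**
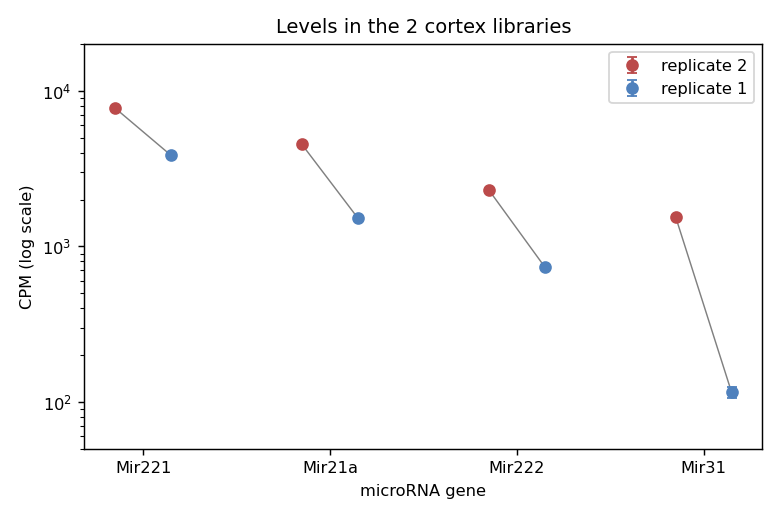
Level of each microRNA gene in CPM on a log scale, with replicate 2 on the left of each pair and replicate 1 on the right; points are single libraries and bars exact 95% Poisson intervals, most of them narrower than the point. The order Mir221, Mir21a, Mir222, Mir31 holds in both libraries, and the line of Mir31, between 1551 and 115 CPM, is the steepest.

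The order of the levels was the same in both libraries, while the distances between neighbours were not. Mir221 stood above Mir21a by 1.71-fold in replicate 2 (exact 95% interval 1.68 to 1.74) and by 2.53-fold in replicate 1 (2.46 to 2.60). Mir21a stood above Mir222 by 1.96-fold in replicate 2 (1.91 to 2.01) and by 2.06-fold in replicate 1 (1.98 to 2.14), the steadiest of the distances. Mir222 stood above Mir31 by 1.49-fold in replicate 2 (1.44 to 1.54) and by 6.40-fold in replicate 1 (5.85 to 7.00). Over both libraries (n = 2) the means of Mir21a and Mir222, and those of Mir222 and Mir31, differed by less than the larger SD of the pair, and those of Mir221 and Mir21a by about the SD of Mir221. Each SD holds the difference between the libraries and leaves aside that the genes were measured in the same ones. It does not bear on the order within each library.

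Together the 4 genes took 1.61% of the assigned microRNA reads in replicate 2 and 0.621% in replicate 1, with 71659 reads in replicate 2 and 30623 in replicate 1. Within that sum the make-up differed. Mir221 supplied 48.0% of it in replicate 2 and 61.8% in replicate 1, and Mir31 supplied 9.61% in replicate 2 and 1.85% in replicate 1. The shares of Mir21a (28.0% in replicate 2 and 24.4% in replicate 1) and of Mir222 (14.3% in replicate 2 and 11.9% in replicate 1) were closer. The sum was 9922 CPM higher in replicate 2, and Mir221 accounted for 39.4% of that difference, Mir21a for 30.3%, Mir222 for 15.8% and Mir31 for 14.5%. The gene with the widest ratio, Mir31, supplied the smallest part of the difference in reads.

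Mir221 and Mir222, though 504 bases apart on the same strand, did not keep a fixed proportion. Mir222 had 0.298 reads for each read of Mir221 in replicate 2 (exact 95% interval 0.292 to 0.305) and 0.192 in replicate 1 (0.185 to 0.199). The mean was 0.245 ± 0.0751 (SD, n = 2), and this proportion needs no scaling of the libraries. On the log2 scale the ratios of the 2 genes between libraries were 1.65 for Mir222 and 1.01 for Mir221, a gap of 0.64. Among 107 pairs of detected genes that neighbour each other within 10 kb on a strand, the median gap was 0.41, and 30 pairs had a wider gap than Mir221 and Mir222. In 2 of the 107 pairs both genes were at least 2-fold higher in replicate 2, this pair and the pair of Mir669e and Mir669l. Since Mir221 and Mir222 were chosen for this direction, nothing is read from their place there.

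All 4 genes were at least 2-fold higher in replicate 2, as 6.71% of the 417 detected genes were (28 genes); since this direction chose the 4, nothing is read from their count. The same ratio in the other direction was found for 5.04% (21 genes). The log2 ratios of the 4 had a median of 1.61. Over the 417 genes the median was -0.05, and the middle of the distribution, between its quartiles, ran from -0.38 to 0.36. Among the 70 detected genes whose mean level lay within the range of the 4, the median was also -0.05 and the quartiles were -0.33 and 0.48. By ratio Mir31 ranked 1 of 417, Mir222 ranked 11, Mir21a 13 and Mir221 28. The coefficient of variation over the 2 libraries lay between 47.7% for Mir221 and 122% for Mir31, against a median of 18.2% over detected genes. With 2 libraries this coefficient follows from the ratio, so it restates the choice and adds no further result.

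**Figure D2:**
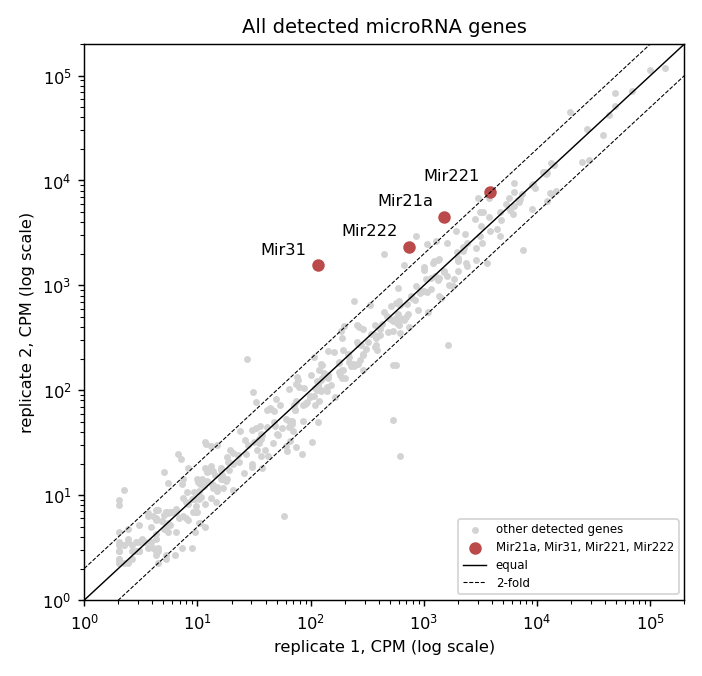
Level in replicate 2 (vertical axis) against replicate 1 (horizontal axis) for the 417 detected microRNA genes, in CPM on log scales, with lines of equality and of a 2-fold ratio. The 4 named genes (red) lie on or above the upper 2-fold line, with Mir221 at 2.02-fold closest to it and Mir31 at 13.5-fold farthest.

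Some genes high in that ranking, among them Mir107, share a run of 20 bases with another annotated microRNA locus or with their own other strand. Of the 417 detected genes, 313 share no such run. Of these, 17 genes (5.43%) were at least 2-fold higher in replicate 2 and 16 at least 2-fold lower. Within these 313 the ranks were 1 for Mir31, 6 for Mir222, 7 for Mir21a and 17 for Mir221. Among the 96 detected genes with a mean of at least 1000 CPM, Mir222 ranked 3, Mir21a 4 and Mir221 10, behind Mir298 (log2 ratio of 2.17) and Mir107 (1.81). The 9922 CPM by which the 4 genes were higher made up 8.70% of the 114056 CPM gained over the 361 genes with a higher level in replicate 2.

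The 3 genes with levels most like those of each of the 4 were found over both libraries. Likeness was measured as the distance between log2 CPM values over the 2 libraries, which share strain and tissue, and says nothing beyond that the levels are alike. Nearest to Mir221 was Mir487b at a distance of 0.20, with 6767 CPM in replicate 2 and 3785 CPM in replicate 1, followed by Mir674 (0.42) and Mir382 (0.59). Nearest to Mir222 were Mir107 (0.42), at 2971 CPM in replicate 2 and 850 CPM in replicate 1, Mir219a-2 (0.54), known from oligodendrocyte maturation, and Mir455 (0.57). Nearest to Mir21a were Mir187 (0.56), Mir34a (0.80) and Mir338 (0.82). The genes nearest to Mir31 lay farther off, Mir34c at 1.55, Mir298 at 1.99 and Mir673 at 1.99. Mir487b, Mir107, Mir219a-2 and Mir338 share a run of 20 bases with another annotated microRNA gene or with their own other strand. Except where that gene lies on the opposite strand of the same place, their levels may miss reads that matched several places. Which of them fall under this exception was not tested. With strand ignored, Mir219a-2 and Mir338 had 0 reads in both libraries, while Mir487b and Mir107 kept their sense counts.

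Other microRNAs known to be induced in injured, inflamed, hypoxic or stressed tissue were mixed in direction. Of the 14 on this list, 13 were detected, and 3 of them were at least 2-fold higher in replicate 2 (23.1% against 6.71% of all detected genes), 0 at least 2-fold lower (5.04% of all) and 10 within 2-fold. Scaled to all reads in the file, 1 was at least 2-fold higher, Mir146b, and 1 at least 2-fold lower, Mir23a (log2 ratio of -1.09). The shares of all detected genes under that scaling were not counted. Under the main scaling the 13 had a median log2 ratio of 0.29, against -0.05 over all detected genes. Of the 13, 8 were higher by any amount (61.5% against 46.5% of all) and 5 lower (38.5% against 53.5%). Mir146, Mir146b, Mir23a, Mir27a, Mir24-2 and Mir199a-1 share such a run. Except where the run belongs to a gene on the opposite strand of the same place, their counts may miss reads. Over the other 8 genes the median was 0.30 with 2 at least 2-fold higher, as were 5.43% of the 313 detected genes without such a run. The 3 genes at least 2-fold higher under the main scaling were Mir132, Mir34a and Mir146b. Mir132, which follows neuronal activity, stood at 44698 CPM in replicate 2 and 19682 CPM in replicate 1 (log2 ratio of 1.18). Mir34a, a target of p53 in stressed cells, stood at 2663 CPM in replicate 2 and 1281 CPM in replicate 1 (1.06). Mir146b rested on 36 reads in replicate 2 and 10 in replicate 1 (2.00, exact 95% interval 0.96 to 3.17).

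The inflammatory members of this list did not share a direction. Mir146, which is induced by the inflammatory factor NF-kB and restrains its pathway, stood at 949 CPM in replicate 2 and 596 CPM in replicate 1, a log2 ratio of 0.67. Mir155, induced in activated macrophages and microglia, stood at 100.4 CPM in replicate 2 and 125 CPM in replicate 1 (-0.31). Mir223, of myeloid cells, had 48 reads in replicate 2 and 46 in replicate 1, and Mir147 had 11 in replicate 2 and 10 in replicate 1, so a ratio of either could not be told from counting error. Mir210, the microRNA best known for induction by low oxygen, was near even at 111 CPM in replicate 2 and 116 CPM in replicate 1 (-0.07), and its sign turned to 0.01 when the 10 most abundant genes were left out of the total.

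The remaining members gave both directions. Mir212, which is made with Mir132, had a log2 ratio of 0.31, well under that of Mir132. The cluster of Mir23a (-0.89), Mir27a (-0.37) and Mir24-2 (-0.75) was lower in replicate 2 at each gene. Mir214, of fibroblasts and other mesenchymal cells, stood at 83.1 CPM in replicate 2 and 48.9 CPM in replicate 1 (0.77), while Mir199a-1, made from another locus, had 0 reads in both libraries.

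**Figure D3:**
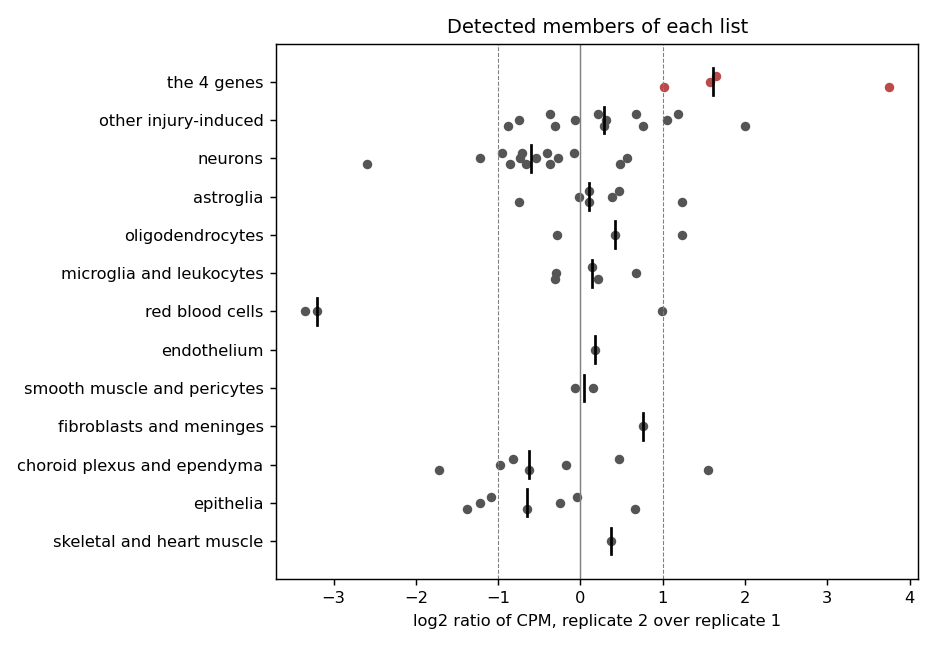
Log2 ratio of CPM, replicate 2 over replicate 1, for each detected gene of each list (points) with the list's median (bar); dashed lines mark a 2-fold ratio. The 4 named genes (red, median 1.61) were chosen for this direction. The other injury-induced genes lie on both sides of 0 (median 0.29), and most neuronal genes lie below it (median -0.60). So do most epithelial (-0.65), choroid plexus and ependyma (-0.62) and red blood cell genes (-3.20).

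Markers of cell types also differed between the libraries, and their part in the levels of the 4 genes was not tested. Of 16 neuronal markers 14 were detected, of which 12 were lower in replicate 2 (85.7%, against 53.5% of all detected genes) and 2 higher (14.3%, against 46.5%); 14 of the 16 share a run of 20 bases as above, among them Mir124a-1, Mir124a-2 and Mir124a-3, which had 0 to 21 reads. Mir137 and Mir153 share none. Mir137 stood at 6351 CPM in replicate 2, against 12338 CPM in replicate 1, and Mir153 at 272 CPM in replicate 2, against 1643 CPM in replicate 1. The 16 had a summed level of 22822 CPM in replicate 2, against 38989 CPM in replicate 1. The sum of the 7 astroglial markers, all detected, was 32431 CPM in replicate 2 and 41855 CPM in replicate 1, with 5 genes higher (71.4%, against 46.5% of all) and 2 lower (28.6%, against 53.5%), and 6 of the 7 share such a run. That of 3 oligodendrocyte markers was 5622 CPM in replicate 2, against 3393 CPM in replicate 1. Such a run is also shared by all 3 oligodendrocyte, both endothelial, 2 of 3 red blood cell and 2 of 5 microglial and leukocyte markers. The same holds for 3 of 4 fibroblast and meningeal markers and for 4 of 5 muscle markers. Some of these runs may belong to a gene on the opposite strand of the same place, as with Mir126b inside Mir126a. Such an overlap by itself costs no sense reads, and these cases were not told apart from the rest. Otherwise the levels of these genes, counts of 0 included, may miss reads. The 5 markers of microglia and leukocytes came to 2079.6 CPM in replicate 2, against 1934 CPM in replicate 1.

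Markers of vessels stood at similar levels in the 2 libraries. The endothelial Mir126a stood at 14813 CPM in replicate 2 and 13131 CPM in replicate 1, with Mir126b at 0 in both, and the smooth muscle and pericyte genes Mir143 and Mir145a came to 6999 CPM in replicate 2, against 7286 CPM in replicate 1. Of 4 markers of fibroblasts and meninges 1 was detected, Mir214, and the list summed to 83.1 CPM in replicate 2, against 50.7 CPM in replicate 1. The red blood cell markers Mir451a, Mir144 and Mir486 summed to 88.5 CPM in replicate 2, against 602 CPM in replicate 1. Mir451a, at 52.2 CPM in replicate 2 and 529 CPM in replicate 1, carried most of this, while Mir486 was higher in replicate 2, with 133 reads, against 74 reads in replicate 1. Markers of choroid plexus and ependyma, 7 of 9 detected with Mir449b at 0 in both, came to 1579 CPM in replicate 2, against 2062 CPM in replicate 1. Of the 7, 5 were lower in replicate 2 (71.4%, against 53.5% of all), while Mir34c was higher, at 711 CPM in replicate 2 and 242 CPM in replicate 1, as was Mir449a (log2 ratio of 0.46). Epithelial markers, 7 of 8 detected, came to 354 CPM in replicate 2, against 471 CPM in replicate 1. Of the 7, 6 were lower in replicate 2 (85.7%, against 53.5% of all) and 1 higher (14.3%, against 46.5%). Muscle markers, 1 of 5 detected (Mir206) with Mir1a-1, Mir133a-1 and Mir133a-2 at 0 in both, stood at 46.8 CPM summed in replicate 2, against 35.5 CPM in replicate 1.

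Each of the 4 genes was higher in replicate 2, the direction that chose them, under every setting tried. The settings include pseudocounts of 1 and 10 CPM, which cannot change a sign. Each scaling shift was smaller than the smallest of the 4 log2 ratios, 1.01 for Mir221, so no scaling could reverse them. Over 8 settings, the main one included, the log2 ratio lay between 3.55 and 3.83 for Mir31, between 1.45 and 1.73 for Mir222, between 1.37 and 1.66 for Mir21a and between 0.81 and 1.09 for Mir221. Mir221 fell short of a 2-fold ratio in 1 of the 8, when levels were scaled to all reads in the file, unassigned ones included, as did Mir132 (0.98) and Mir34a (0.85). That scaling lowers the ratio of every gene, with a shift of -0.20 on the log2 scale.

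**Figure D4:**
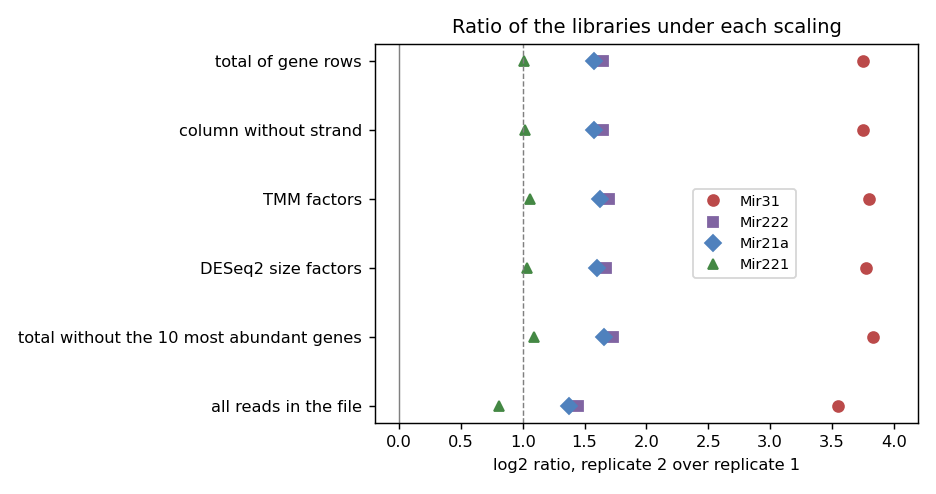
Log2 ratio of replicate 2 to replicate 1 (horizontal axis) for each of the 4 genes under 6 ways of counting or scaling (vertical axis); the dashed line marks a 2-fold ratio. A scaling shifts all genes by the same amount, so it cannot change their order; the scaling to all reads in the file puts Mir221 at 0.81.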

How the data were processed

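MicroRNA-seq of 2 cortex libraries was analysed from the tables of raw read counts deposited by the authors, made against mm10 and GENCODE M21 per the notes deposited with them. For the aligner and counter, nothing is stated in the labels or notes. The sense column was used; its layout is that of STAR gene counts, an inference. All 2202 of 2202 gene identifiers matched GENCODE M21. Unassigned reads, 73.9% of reads in replicate 2 and 69.9% in replicate 1, stayed out of library totals. CPM is the sense count per 1000000 sense reads assigned to microRNA genes. Ratios use no pseudocount, with exact conditional binomial intervals, and no test was run, since the genes were chosen on these values. The 4 genes and the lists were chosen with earlier results of these data known. Named are the 4 genes, the 3 detected genes nearest to each over log2 CPM, and members of fixed lists. Others (Mir298, Mir669e, Mir669l) were named after their values were seen. Scaling factors came from edgeR 4.0.16 and DESeq2 1.42.0 under R 4.3.3; other steps used Python 3.11.15 and scipy 1.17.1. The ratio step was tested on data simulated with counting error alone, which checks the calculation and does not cover the spread between libraries. 5xFAD/CAST reads were counted against mm10, and strain differences were not measured.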

Additional observations from a re-analysis of the deposited data

Results flagged for a closer look

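Mir21a had 4 reads on the strand opposite to its annotation in replicate 1, beside 7483 sense reads. The 4 reads are above the fixed limit of 3 reads set for a count of 0. In replicate 2 Mir21a had 0 such reads. The other 3 genes had 0 reads on that strand in both libraries.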

How the results depend on the processing

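Of 35 alternative values for the log2 ratios of the 4 genes and of their sum, 0 reversed and 22 stayed within the counting interval. The genes were chosen for this direction and each scaling shift was smaller than their ratios, so nothing is read from the 0. TMM factors gave 1.62 for Mir21a, 1.06 for Mir221 and 1.42 for the sum, and DESeq2 size factors gave 1.40 for the sum. Leaving the 10 most abundant genes out of the total gave 1.66 for Mir21a, 1.09 for Mir221, 1.73 for Mir222 and 1.46 for the sum, and raised the mean levels to 7126 CPM for Mir21a, 1985 for Mir31, 13604 for Mir221, 3594 for Mir222 and 26309.8 for the sum, by a smaller denominator. Scaling to all reads in the file gave 1.37 for Mir21a, 3.55 for Mir31, 0.81 for Mir221, 1.45 for Mir222 and 1.18 for the sum, with means of 819.5 CPM for Mir21a, 1589.8 for Mir221 and 3042 for the sum, by a larger one. The genes at least 2-fold higher and lower in replicate 2 numbered 28 and 21 of 417. They were 86 and 63 of 620 with at least 1 read in place of 10, and 66 and 61 of 417 at 1.5-fold. In alternatives chosen after seeing the data, they were 13 and 5 of 189 with at least 500 reads. Among the 313 genes sharing no run of 20 bases, also an alternative chosen then, they were 17 and 16. Without a replicate, each mean is the level of the other library. No paired analysis was possible because there is 1 group. With 2 libraries, depth sets narrow counting intervals, and the spread between libraries is the wider error.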
